A study of Mus musculus with 32 samples.

Results

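Kupffer cells isolated from mouse livers colonized by colon carcinoma cells (KT, cells of the tumor microenvironment, TME) were compared with Kupffer cells from control livers (KC), 4 samples against 4, which are 8 of the 32 samples of the series, chosen by their labels. Per the study's methods, male Balb/c mice of 6 to 8 weeks received C26 colon carcinoma cells, a line syngeneic with that strain, into the spleen, or PBS as control. Liver cells were taken 14 days later (15 days at another place in the study), and the sources used here do not say whether animals were pooled. After collagenase perfusion, Kupffer cells were separated on Percoll gradients and by adherence and were cultured for up to 24 h, so that both groups share isolation and culture. Purity was judged by staining for CD68, which is present on macrophages of any origin. The other samples, used here only where they show a difference, were endothelial cells (EC, ET), Ito cells (IC, IT), liver metastases (TM) and primary tumors (TP), each also with 4 samples a group.

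Kupffer cells are the resident macrophages of the liver sinusoids. They clear particles, ageing red cells and microbial products from portal blood through scavenger and complement receptors, recycle heme iron, present antigen, and respond to microbial products and interferons. In a damaged or tumor-bearing liver, monocytes from the blood can enter and turn into macrophages that share many of these genes. Clec4f, a lectin, Vsig4, a complement receptor, and Cd5l, a secreted scavenger protein, mark the resident cells. The measurements are of bulk RNA, in which fewer cells of a type and less RNA per cell cannot be told apart.

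Each KC sample and the KT sample of the same number were hybridised to the same array of mouse probes, KC always in Cy3 and KT always in Cy5, so that dye and condition cannot be told apart. Values are log2 levels, that is the log2 of the processed signal after quantile normalization, and a difference of 1 is 2-fold. Of 55681 probes, 22590 (40.6%) were well above background in all 8 Kupffer samples and are called bright here. No spot was saturated. Probes with an adjusted p under 0.05 (limma, Benjamini-Hochberg over the whole array) are the ones called higher or lower.

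Before any gene is described, the samples have to be, because 3 of the 8 stood apart. After each bright probe was centred on its mean over the 8 samples, KT replicates 1, 2 and 3 correlated with each other at 0.675 to 0.789 and KC replicates 1 and 2 at 0.733. The sample labelled KC replicate 4 correlated at 0.643, 0.629 and 0.541 with KT replicates 1, 2 and 3 and at -0.546, -0.622 and -0.456 with KC replicates 1, 2 and 3. The sample labelled KT replicate 4 correlated at 0.655 and 0.564 with KC replicates 1 and 2 and at -0.403, -0.429 and -0.456 with KT replicates 1, 2 and 3. Thus on array 4 each sample was most like the group opposite to its label. KC replicate 3 was like neither group, with -0.128 and -0.054 against KC replicates 1 and 2, and it had the lowest share of spots well above background, 44.6% where the other 7 reached up to 53.4%. Whether the labels of array 4 match its channels could not be settled from the files, and every value over 4 replicates rests on them. Samples are named as labelled throughout, and results are given with all 4 replicates and with replicates 1 to 3.

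**Figure D1:**
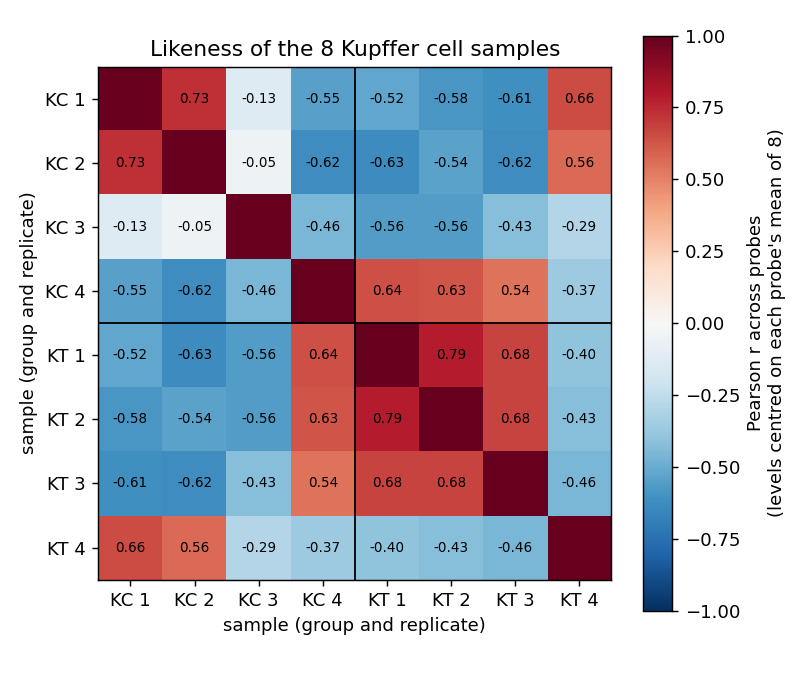
Pearson correlation between the 8 Kupffer cell samples (group and replicate on both axes) over bright probes centred on their mean, as colour and number. KC replicate 4 is red against KT replicates 1 to 3, KT replicate 4 is red against KC replicates 1 and 2, and KC replicate 3 has no close partner.

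The difference of each array, KT minus KC, showed the same split. Arrays 1 and 2 correlated at 0.892 across bright probes and array 3 with them at 0.442 and 0.446, whereas array 4 correlated with arrays 1, 2 and 3 at -0.781, -0.778 and -0.286. Array 4 had the opposite sign to the mean of arrays 1 to 3 for 16159 of the 22590 bright probes (71.6%), and 2207 bright probes had the same sign on all 4 arrays. Among the 145 bright probes with a mean level over 17, the correlation of array 4 with the mean of arrays 1 to 3 was 0.325, positive where that over all bright probes was -0.657. Across probes these correlations describe the arrays, since probes are not independent.

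**Figure D2:**
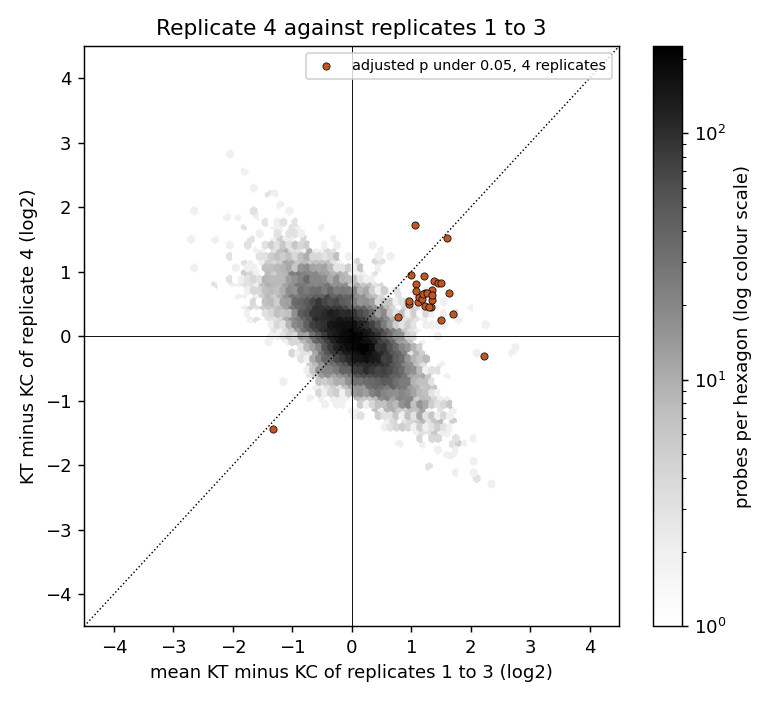
Difference KT minus KC of replicate 4 (vertical axis, log2) against the mean difference of replicates 1 to 3 (horizontal axis, log2) for bright probes, with colour as the number of probes. The cloud runs from upper left to lower right, and the probes called with all 4 replicates lie off it, nearly all at the upper right.

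The Kupffer markers were bright in all 8 samples. Clec4f had a mean level of 15.5 in KC, against 12.8 in control endothelial and 14.8 in control Ito samples, Vsig4 12.8 against 10.6 and 12.6, and Cd5l 16.1 against 14.8 and 15.5. The labelled cell type had the highest mean of each marker among the 3 control groups with all 4 KC samples. With KC replicates 1 to 3, Clec4f (15.3) stayed the highest, whereas Vsig4 (12.4) and Cd5l (15.4) lay just below the control Ito means. Those other groups lay on another slide, and the differences between cell types were not tested.

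With all 4 replicates, few bright genes separated KT from KC. Of the 22590 bright probes 28 were called higher and 1 lower (0.128% of those tested), and 0 reached an adjusted p under 0.001 and 4-fold (the study names thresholds of 0.001 and 4 without the scale of the 4, read here as 4-fold) by limma or by the methods' t-test. At 4-fold and an unadjusted p under 0.05, limma gave 12 bright probes higher and 1 lower. With no minimum fold, at an unadjusted p under 0.05, limma gave 704 bright probes higher and 822 lower, and the methods' t-test 740 and 586. The largest differences with a gene symbol were those of Hdac7, Szrd1, Elp5, Zcchc9, Dennd4a, Rnf227, Eya1, Cep170b, Sp110 and Arl6ip6, between 1.11 and 1.59 on the log2 scale. The 1 lower probe, which the files name Strm and which is named here after its value was seen, differed by -1.36.

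Sp110, an interferon-inducible nuclear body protein known from macrophage resistance to intracellular bacteria, lay at 17.40, 17.52, 16.30 and 17.58 in KC replicates 1 to 4 and at 18.30, 18.38, 18.16 and 18.52 in KT replicates 1 to 4. All 4 KT samples lay above all 4 KC samples, and Sp110 was among the genes that kept its direction on array 4. The difference was 1.14 ± 0.23 (SE, n = 4 against 4, limma adjusted p = 0.0172). Its probe lies at mm9 chr1:87473677-87473736. The probe was among the brightest, with a mean level of 17.77, where quantile normalization hands out the same few top values. The 18.52 of KT replicate 4 was also the value of Arl6ip6 in KT replicates 1 and 3. The size of the Sp110 difference depended on the scaling, at 1.43 with 75th percentile scaling and 1.86 with normexp, loess and Aquantile. Sp110 was higher in ET than EC too, by 0.98 (limma adjusted p = 0.0309). KC replicate 3 was the lowest of the 8, and without that sample the difference was 0.84 (limma adjusted p = 0.0888). With the array that a KC and a KT sample share as a block (the replicate block), Sp110 was not called either (adjusted p = 0.065).

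Hdac7, a class IIa histone deacetylase that works as a transcriptional corepressor, was at 13.50, 13.49, 12.85 and 14.64 in KC and at 15.64, 15.38, 15.48 and 14.33 in KT. Its groups overlapped, since KC replicate 4 lay above KT replicate 4, and Hdac7 was the 1 probe of the 28 with the opposite sign on array 4. The difference was 1.59 ± 0.33 over 4 replicates (limma adjusted p = 0.021, and 0.116 with the replicate block) and 2.22 ± 0.31 over replicates 1 to 3 (limma adjusted p = 1.97e-04).

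Elp5, a subunit of the Elongator complex that modifies the wobble base of tRNAs, was at 13.58, 13.55, 12.77 and 14.23 in KC and at 15.09, 14.95, 14.95 and 14.57 in KT. Here the groups did not overlap, and the difference was 1.36 ± 0.24 (limma adjusted p = 0.0041). Rnf227, listed in the files under an older clone name, was the dimmest of the 10, at 5.83, 5.74, 5.65 and 5.29 in KC and 7.01, 7.21, 6.21 and 7.02 in KT, a difference of 1.23 ± 0.28 (limma adjusted p = 0.0397). Its array 4 difference, 1.73, was larger than those of the other arrays, and it was the 1 probe of the 29 that was not called from replicates 1 to 3 (limma adjusted p = 0.0946).

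The other 6 had differences of 1.4 for Szrd1, 1.29 for Zcchc9, 1.25 for Dennd4a, which activates Rab GTPases, 1.17 for Eya1, a transcriptional coactivator and phosphatase, 1.15 for Cep170b and 1.11 for Arl6ip6. All of these were also higher in KT on array 4, by 0.46 to 0.85. With the replicate block 7 bright probes were called in place of 29, and of the 10 genes Elp5 and Szrd1 stayed called. Without KC replicate 3, Elp5, Zcchc9 and Dennd4a were the ones of the 10 still called. The 28 higher probes sat at the top of the brightness scale: their median level was 17.3, against 9.05 over all bright probes, and 18 of them had a mean level over 16. In the other comparisons 17 of the 28 were called between ET and EC (1.28% of bright probes were), 4 between IT and IC (0.062%) and 2 between TP and TM (1.95%). A higher mean was seen in 28 of 28 in ET than EC, where 11669 of the 22590 bright probes were higher, in 28 of 28 in IT than IC (11222 of 22590) and in 26 of 28 in TP than TM (10804 of 22590). Their median differences were 1.11 in Kupffer, 0.89 in endothelial, 0.52 in Ito cells and 0.20 between TP and TM. In each of these comparisons the higher group carried Cy5, and the part of the dye was not tested.

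**Figure D3:**
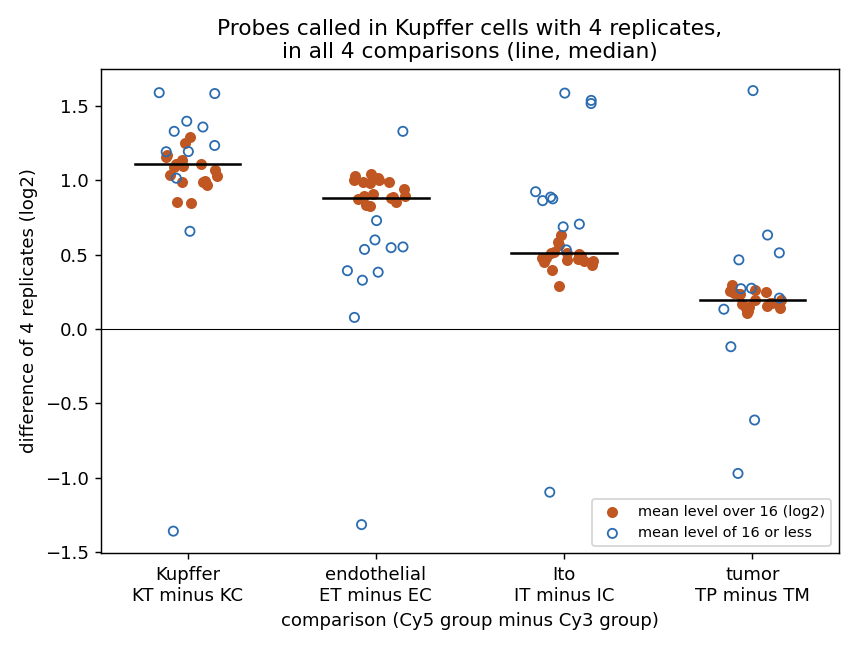
The 29 bright probes called in Kupffer cells with 4 replicates, with their difference (vertical axis, log2) in each of 4 comparisons of a Cy5 with a Cy3 group (horizontal axis). Filled points have a mean level over 16, and they form a tight band that falls from about the Kupffer median of 1.11 to the tumor median of 0.20.

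With replicates 1 to 3 alone, 218 bright probes were called higher and 297 lower (2.28% of 22590). On array 4, which this fit did not use, 156 of the 218 and 293 of the 297 had the opposite sign, with median differences of -0.44 and 0.52. The calls leaned on KC replicate 3 as well, and without that sample 80 bright probes were called higher and 134 lower. The genes the results turn on are therefore given with their value in every sample and the others with their array 4 difference.

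Sirpb1a, an activating receptor of the signal-regulatory family on myeloid cells, had the largest rise of replicates 1 to 3 among bright probes with a symbol. It was at 6.21, 6.01 and 6.47 in KC replicates 1 to 3 and 9.69, 9.99 and 9.81 in KT replicates 1 to 3, a difference of 3.60 ± 0.71 (limma adjusted p = 0.0087), and at 9.56 in KC replicate 4 against 6.99 in KT replicate 4. KC replicate 4 thus lay with the other KT samples. Pla2g7, the secreted hydrolase of platelet-activating factor made by macrophages, was at 9.55, 9.38 and 8.53 in KC and 11.82, 11.86 and 11.90 in KT, a difference of 2.71 ± 0.58 (limma adjusted p = 0.0157), with 11.89 and 9.76 on array 4. Over all 4 replicates of those cells, its ET minus EC difference was -0.20 and its IT minus IC difference 0.18. Without replicate 4 of the Kupffer and Ito cells, its change was 2.91 above that of endothelial cells (limma adjusted p = 0.07). It was then 1.86 above that of Ito cells (limma adjusted p = 0.463), so that neither difference was called.

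Knop1 (2.91), Gripap1 (2.77), a regulator of recycling endosomes, Elavl4 (2.74), an RNA-binding protein best known from neurons, Htra4 (2.49), a secreted serine protease, Gm12059 (2.46), Gmnn (2.40), the geminin that keeps replication origins from firing again, and Dcaf12l2 (2.28) were the other large rises of replicates 1 to 3 (limma adjusted p from 0.00745 to 0.0484). All were lower in KT than KC on array 4, from -0.01 for Elavl4 to -2.46 for Gm12059. All of them had their largest difference on array 3, where KC replicate 3 was the lowest KC sample. Without that sample Sirpb1a, Htra4 and Hdac7 stayed called among the 10 largest rises, and Pla2g7 (limma adjusted p = 0.0826) and the rest did not. With the replicate block Gripap1, Elavl4, Htra4 and Hdac7 stayed called.

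Irf4, a transcription factor of B cells, plasma cells and alternatively activated macrophages, was lower. It was at 10.77, 10.72 and 9.27 in KC replicates 1 to 3 and 8.53, 8.57 and 8.45 in KT replicates 1 to 3, a difference of -1.74 ± 0.29 (limma adjusted p = 0.00211), with 8.57 in KC replicate 4 and 10.66 in KT replicate 4. KC replicate 3 lay between the levels of the other KC and KT samples. Irf4 was still called without KC replicate 3 (-2.23) and with the replicate block (limma adjusted p = 0.027).

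Mup5, a major urinary protein secreted by hepatocytes, was at 12.41, 12.47 and 10.88 in KC and 9.35, 9.39 and 9.31 in KT (-2.57 ± 0.54, limma adjusted p = 0.0129), with 9.26 and 12.40 on array 4. Mup3 (-2.38, limma adjusted p = 0.0334) and Fabp1 (-1.58, limma adjusted p = 0.0236), the liver fatty acid binding protein, were lower too. On array 4 KC and KT were at 8.81 and 11.94 for Mup3 and at 8.34 and 10.34 for Fabp1. The Mup genes are near-identical copies, so that 1 probe may read several of them. All 3 were lower in ET than EC as well, by -2.94, -2.90 and -3.19, each called there. Foxp1 (-1.65), a transcription factor that falls as monocytes become macrophages, Kcnq1 (-1.80), a potassium channel, Gm3715 (-2.42), Gm3187 (-2.09) and E130304I02Rik (-1.96) were the other large falls of replicates 1 to 3 (limma adjusted p from 0.00438 to 0.0431), and all were higher in KT on array 4, by 0.69 to 1.67. Without KC replicate 3, Mup5, Mup3, Fabp1, Irf4 and Kcnq1 stayed called among the 10 largest falls, and with the replicate block Gm3715, Kcnq1 and Irf4 did.

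**Figure D4:**
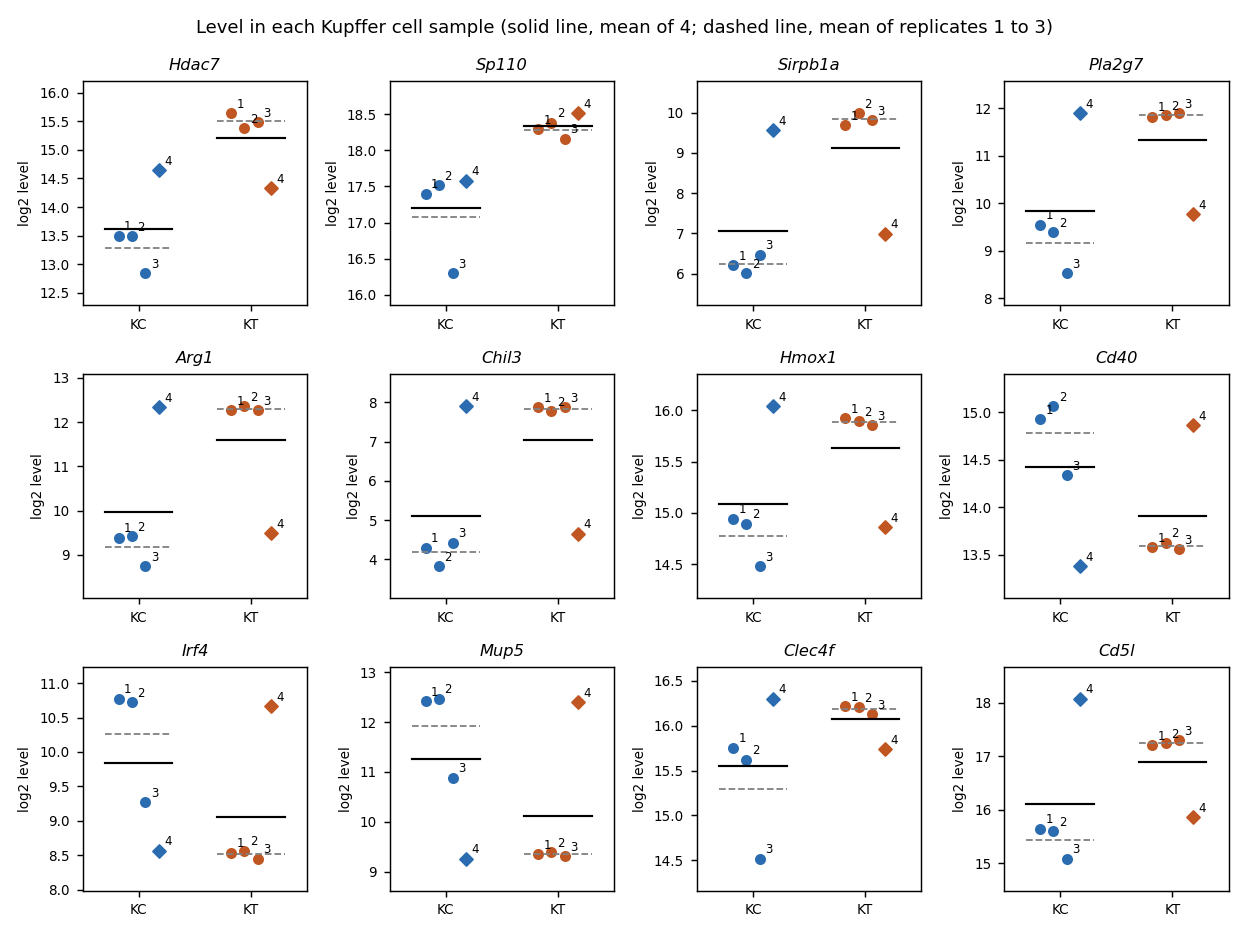
Log2 level of 12 genes (vertical axes) in each KC and KT sample (points, numbered by replicate, with diamonds for replicate 4), with the mean of 4 as a solid line and the mean of replicates 1 to 3 dashed. In most panels the replicate 4 points lie toward the opposite group, and in the Sp110 panel all KT points lie above all KC points.

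The bright probes called lower with replicates 1 to 3 included long noncoding RNAs. Of 3197 bright probes that the array names by a genomic interval, 61 were called lower and 14 higher (1.91% lower), against 134 lower and 187 higher of 16655 bright probes with a gene symbol (0.805% lower). Airn, the noncoding RNA that silences the paternal Igf2r copy, and 2 intervals with several probes each are shown by the sequence of a probe, since these 60-base sequences, rather than the names, say what was read. They are copied from the array files in lower case, 5′ to 3′, and the intervals were chosen after their values were seen.
Airn, mm9 chr17:12944784-12944843, plus strand: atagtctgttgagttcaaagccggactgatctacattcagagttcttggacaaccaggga
Interval on chromosome 17, mm9 chr17:84477554-84477613, minus strand: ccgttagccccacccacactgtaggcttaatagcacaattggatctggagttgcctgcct
Interval on chromosome X, mm9 chrX:50406967-50407026, minus strand: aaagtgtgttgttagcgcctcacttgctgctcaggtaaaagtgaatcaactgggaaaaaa

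This Airn probe was at 8.71, 10.03 and 10.35 in KC replicates 1 to 3 and 7.19, 7.10 and 6.85 in KT replicates 1 to 3 (-2.65 ± 0.61, limma adjusted p = 0.024), with 7.01 and 8.04 on array 4. The array holds 3 more Airn probes, and they did not follow: their differences were -0.35, 0.98 and -0.06, none called, and the last was at background in all 8 samples. The probes of Airn therefore disagreed, and only the first was called.

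The chromosome 17 interval had 5 probes that moved together. The printed one was at 10.90, 11.47 and 11.37 in KC and 8.58, 8.69 and 8.60 in KT (-2.62 ± 0.50, limma adjusted p = 0.00666), with 8.64 and 10.61 on array 4. The other 4 differed by -2.11 to -2.58, and 3 of the 5 were called. For the chromosome X interval, the printed probe was at 9.19, 9.09 and 11.13 in KC and 7.80, 7.76 and 7.80 in KT (-2.02 ± 0.39, limma adjusted p = 0.00691), with 7.75 and 9.20 on array 4. Of its 6 probes 5 were called, with differences from -1.81 to -2.24, and the sixth was at background in all 8 samples. Each interval thus gave like values at several probes, although neighbouring probes of 1 transcript are not independent.

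The 23 gene lists held 302 genes, of which 301 were on the array and 256 were bright. With 4 replicates 1 gene was called, Sp110, higher, where 0.124% of all bright probes were called higher. With replicates 1 to 3, 5 were called higher (Chil3, Ms4a4c, Mmp9, Sp110 and Hmox1) and 2 lower (Lgals3 and Cd40). The bright ones were 3 of 256 higher and 2 of 256 lower, where 0.965% and 1.31% of all bright probes were called. Array 4 had the opposite sign for 197 of the 256. With the replicate block none of the 7 was called. Without KC replicate 3, none of the 5 higher genes was called any more, and 6 list genes were called lower, Cd40 among them.

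Of the 11 bright genes of resident Kupffer identity, 10 had a positive difference in replicates 1 to 3 and none was called. Their median was 0.76, 0.74 and 1.52 on arrays 1 to 3 and -0.80 on array 4, where the median of all bright probes was 0.01 for replicates 1 to 3. Cd5l was at 15.65, 15.60 and 15.08 in KC and 17.21, 17.25 and 17.30 in KT (1.81 ± 1.00), with 18.08 and 15.86 on array 4. Clec4f was at 15.75, 15.62 and 14.51 in KC and 16.22, 16.20 and 16.13 in KT (0.89 ± 0.73), with 16.30 and 15.74 on array 4. Vsig4 differed by 1.19 ± 0.99. Marco, a scavenger receptor for bacteria that was picked after its values were seen, differed by 2.16 ± 0.91. The limma adjusted p of these 4 genes lay between 0.256 and 0.691.

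Of the pan-macrophage genes, all 14 were bright, none was called, and the median was 0.85 for replicates 1 to 3. Adgre1, the F4/80 antigen, differed by 1.39 ± 1.18, Csf1r, the receptor for the macrophage growth factor, by 0.53 ± 0.44, and Cd68, the protein used to judge purity, by 0.17 ± 0.35. Cd14, the lipopolysaccharide coreceptor, was at 14.86, 14.83, 14.69 and 14.81 in KC and 14.57, 14.57, 14.63 and 14.58 in KT. Its groups did not overlap over 4 replicates, as those of 1.86% of bright probes did with KT lower, but the difference of -0.21 was not called (limma adjusted p = 0.966).

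Genes of monocytes and their descendants had a median of 1.15 for replicates 1 to 3 and -0.99 on array 4. Ms4a4c, a membrane protein of the MS4A family, was at 17.37, 17.39, 16.37 and 17.61 in KC and between 17.96 and 18.13 in the 4 KT samples. It was higher in KT on all 4 arrays with no overlap, as were 2.89% of bright probes, and differed by 1.03 ± 0.26 in replicates 1 to 3 (limma adjusted p = 0.0358) and by 0.87 over 4 (limma adjusted p = 0.101). Ccr2, the receptor that brings monocytes out of the marrow, was at 4.84, 4.69 and 5.54 in KC and 7.09, 7.07 and 7.07 in KT, with 7.22 and 4.69 on array 4, and was not called (2.05 ± 0.74, limma adjusted p = 0.159). Ly6c1 and Cx3cr1 differed by 0.35 ± 0.56 and 0.19 ± 0.48. Chil3, a chitinase-like protein of alternatively activated macrophages and marrow cells, was at 4.30, 3.83 and 4.43 in KC and 7.88, 7.77 and 7.87 in KT, with 7.91 and 4.65 on array 4. It was well above background in 2 of the 4 KC samples, so that the size of its difference depends on the background correction (1.73 on the log2 scale with normexp, loess and Aquantile). It was called in replicates 1 to 3 (limma adjusted p = 0.0494), but not with the replicate block (adjusted p = 0.155). S100a4, chosen after its values were seen, differed by 2.29 ± 0.90 (limma adjusted p = 0.214).

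The tumor-associated macrophage list, 17 of 18 bright, had a median of 0.47 and 1 gene called in each direction. Mmp9, the gelatinase that degrades basement membrane, was at 2.76, 2.69 and 2.66 in KC and 6.07, 6.01 and 6.17 in KT, with 6.26 and 3.00 on array 4. It was not well above background in KC replicates 1 to 3, and against the dimmest detected signal it was at least 1.86-fold higher in KT (limma adjusted p = 0.0388). Lgals3, a galactoside-binding lectin of macrophages, was lower, at 17.73, 17.56 and 17.63 in KC and 16.96, 16.97 and 17.01 in KT (-0.66 ± 0.16, limma adjusted p = 0.0372), with 16.86 and 17.23 on array 4. That call depends on the scaling, as the difference was -0.36 (adjusted p = 0.497) with 75th percentile scaling and -0.04 (adjusted p = 0.976) with normexp, loess and Aquantile. Arg1, the arginase of alternatively activated macrophages, was chosen after its values were seen and was at 9.39, 9.42 and 8.75 in KC and 12.27, 12.37 and 12.28 in KT, with 12.34 and 9.49 on array 4. Its samples formed the same 2 sets as those of Chil3 and Mmp9, yet it was not called (3.12 ± 1.34, limma adjusted p = 0.268). Trem2, a lipid-sensing receptor, differed by 1.79 ± 1.01, Spp1, or osteopontin, by 0.65 ± 0.58, and Gpnmb by 0.37 ± 0.64, none called. Lpl, which hydrolyses triglycerides of lipoproteins, had no overlap over 4 replicates, with KC at 11.64 to 13.15 and KT at 13.16 to 13.37, and was not called (0.57, limma adjusted p = 0.977).

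Inflammatory and interferon genes gave no shared direction. The 18 bright cytokine and NF-kB genes had a median of -0.17 for replicates 1 to 3 and none was called: Il1a differed by 0.43 ± 0.59, Il1b by 0.25 ± 0.69 and Il6 by -0.11 ± 1.26. The interferon-stimulated list, 17 of 17 bright, had a median of 0.11, and Sp110 was the 1 member called. Isg15, a ubiquitin-like protein, differed by 0.26 ± 0.35, Ifit1 by 0.54 ± 0.59 and Ifit2 by 0.66 ± 0.47. Oas1a, a sensor that makes 2-5A from double-stranded RNA, was at 17.89, 17.86, 17.85 and 17.69 in KC and 17.33, 17.30, 17.36 and 17.44 in KT, so KT was lower without overlap, the direction opposite to Sp110. Usp18, the protease that removes Isg15, was lower without overlap too, at 17.02 to 17.35 in KC and 16.78 to 16.85 in KT, and neither was called (limma adjusted p = 0.659 and 0.942 over 4 replicates).

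Cd40, the receptor through which T cells activate macrophages, was the 1 called gene of antigen presentation, 13 of 14 bright. It was at 14.93, 15.07 and 14.34 in KC and 13.58, 13.63 and 13.56 in KT (-1.19 ± 0.29, limma adjusted p = 0.0335), with 13.38 and 14.86 on array 4. The class II genes H2-Aa, H2-Ab1 and H2-Eb1 differed by -0.21, 0.06 and -0.57, none called. No pattern recognition receptor, 12 of 12 bright, was called: Tlr1 differed by 1.58 ± 0.61, Tlr2 by -0.69 ± 0.70 and Tlr3 by 0.16 ± 0.37.

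In the handling of iron and heme, Hmox1 was called. This heme oxygenase, which frees iron from red-cell heme, was at 14.94, 14.89 and 14.48 in KC and 15.92, 15.89 and 15.85 in KT (1.12 ± 0.24, limma adjusted p = 0.0161), with 16.04 and 14.86 on array 4. The iron transporters Slc11a1 and Slc11a2 differed by 0.80 ± 0.46 and -0.55 ± 0.25. Lysosomal genes had 16 of 16 members positive in replicates 1 to 3 (median 0.69) and -0.53 as the median of array 4, with none called. Ctsa differed by 0.57 ± 0.26, Ctsb by 0.14 ± 0.26, and Ctsd, chosen after its values were seen, by 1.16 ± 0.33 (limma adjusted p = 0.0659).

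Scavenger receptors (13 of 13 bright, median 0.61), lipid handling (13 of 13, 0.26) and complement and acute phase (12 of 14, 1.11) had no called member. Msr1 differed by 0.78 ± 1.06, Cd36 by 0.61 ± 1.08 and Scarb1 by 0.37 ± 0.20. The cholesterol exporters Abca1 and Abcg1 differed by 0.34 ± 0.32 and 0.33 ± 0.49, and the oxysterol receptor Nr1h2 by 0.01 ± 0.22. C2, C3 and C4b differed by 0.62 ± 0.73, 0.28 ± 1.03 and 1.43 ± 0.73, and the acute phase gene Saa3, chosen after its values were seen, by 2.59 ± 1.58. Hypoxia and glycolysis genes had a median of -0.34 (13 of 13 bright), with Slc2a1, a glucose transporter, at -0.48 ± 0.32, Hk2 at -0.62 ± 0.34, Pfkfb3 at 0.17 ± 0.94 and Ndrg1, chosen after its values were seen, at -1.36 ± 0.51, none called. Of 14 cell cycle genes 7 were bright and none was called. Mki67 differed by -0.02 ± 0.60, whereas Top2a and Ccnb1 were each well above background in 1 of 4 KC samples.

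**Figure D5:**
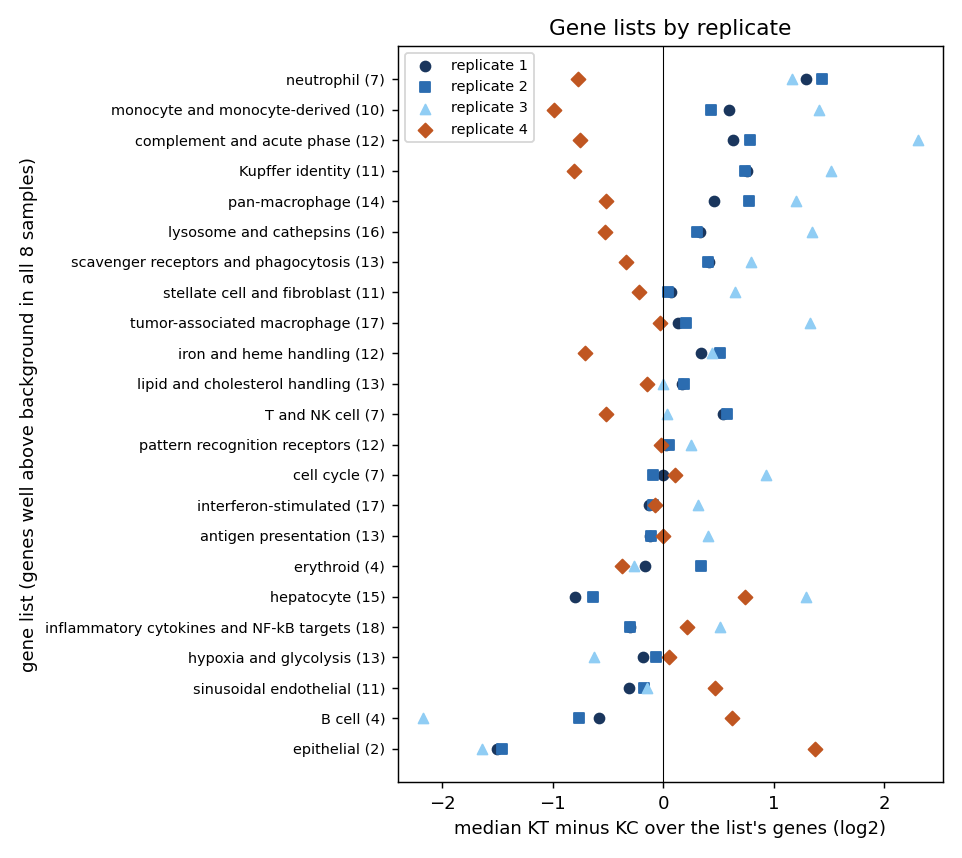
Median difference KT minus KC over the bright genes of each list (horizontal axis, log2), by replicate (symbols), with the number of bright genes beside each list name. Replicates 1 to 3 lie right of 0 and replicate 4 left of it for Kupffer identity, pan-macrophage, monocyte, neutrophil, lysosome and complement genes. The same holds for the iron and heme, scavenger receptor, T and NK cell and stellate cell lists. It also holds, close to the line for replicate 4, for the tumor-associated macrophage and pattern recognition lists.

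Markers of other cells differed between the samples, in part along the same split. Neutrophil genes (7 of 13 bright) had medians of 1.29, 1.44 and 1.17 on arrays 1 to 3 and -0.77 on array 4. S100a9, a calcium-binding protein of neutrophils and young monocytes, was at 9.77, 9.72 and 9.82 in KC and 12.56, 12.61 and 12.41 in KT, with 12.84 and 9.78 on array 4 (2.75 ± 1.4, limma adjusted p = 0.382). S100a8 differed by 1.4 ± 1.0, Ly6g by 1.43 ± 0.59 and Ngp, chosen after its values were seen and dim in KC, by 3.20 ± 1.06, and none of the 13 was called. Their summed linear signal ran from 38200 to 71000 in KC and from 36600 to 44500 in KT, with the highest sum in KC replicate 3.

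Hepatocyte genes (15 of 16 bright, none called) summed to 116000, 115000, 29500 and 97800 in KC replicates 1 to 4 and to 95300, 94300, 94300 and 115000 in KT. The lowest was KC replicate 3, so that array 3 had a positive median (1.30) where arrays 1 and 2 had -0.80 and -0.63. Alb, Apoa1 and Apoa2 differed by 0.28 ± 0.67, -0.02 ± 0.40 and -0.81 ± 0.28, and Cyp3a11, chosen after its values were seen, by -1.62 ± 0.51. Alb, Apoa1 and Apoa2 were bright in all 8 samples, and the part of hepatocyte RNA in the falls of Mup5, Mup3 and Fabp1 was not tested.

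T and NK cell genes summed to 2980, 2930, 6200 and 5470 in KC and 5480, 5580, 5440 and 3080 in KT. Gzma, a granule protease of these cells chosen after its values were seen, was at 6.17, 6.39 and 9.75 in KC and 10.29, 10.50 and 10.42 in KT, with 10.20 and 6.41 on array 4. Here KC replicate 3 lay with KT replicates 1 to 3. Of the T cell receptor genes, Cd3e differed by -0.34 ± 0.44 and was not called, while Cd3d and Cd3g lay between 1.98 and 6.09, partly at background.

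B cell genes summed to 1310 to 1910 in KC and 1250 to 1410 in KT, highest in KC replicate 3. Cd79a and Cd79b, the signalling chains of the B cell receptor, differed by -0.87 and -2.0. Sinusoidal endothelial genes (11 of 12 bright) summed to 27500 to 43800 in KC and 25800 to 36600 in KT, and Stab2, Lyve1 and Pecam1 differed by 0.70, -0.44 and 0.23. Stellate cell genes summed to 117000 to 154000 in KC and 118000 to 137000 in KT, with Lrat and Reln partly at background and a difference of 0.18 for Des. Hemoglobin and other erythroid genes summed to 7200 to 10200 in KC and 6750 to 7830 in KT, and Hba-a1, Hbb-b1 and Alas2 differed by -0.52, -0.08 and 0.18. No gene of these lists was called, and their part in the other results was not tested.

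Epithelial genes were low. The list summed to 573, 557, 703 and 255 in KC and 240, 231, 273 and 611 in KT, and 3 of its 8 genes were above background in none of the 8 samples. Krt8 and Krt18, keratins of simple epithelia, differed by -1.38 ± 1.06 and -1.69 ± 0.88, and Epcam was well above background in 1 of the 8 samples. No epithelial gene was called, and on array 4 the order of KC and KT was again reversed.

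Many called probes outside the bright set were not well above background in KC. Over all 55681 probes, 205 were called higher and 37 lower with 4 replicates (0.435%), and at an adjusted p under 0.001 and 4-fold 63 higher and 0 lower (0.113%). With normexp background correction none of the 63 remained past these thresholds, since 0 probes passed them. Beside that 0, limma gave 5 probes lower by 4-fold at an unadjusted p under 0.05, and the methods' t-test called none at these thresholds. Of the 63, 59 were not well above background in any KC sample, so that their fitted fold changes depend on the background and only a lower bound can be given. With the bound taken against the dimmest detected signal, after normexp, loess and Aquantile normalization and open to dye bias, A530001N23Rik was at least 2.21-fold higher in KT (limma adjusted p = 7.93e-08), Vmn1r41 at least 2.23-fold (2.69e-12), Tas2r116 at least 2.04-fold (2.15e-10), 4921511C20Rik at least 2.13-fold (2.69e-12) and Sox11 at least 1.94-fold (1.19e-10). Vmn1r41 and Tas2r116 encode vomeronasal and bitter taste receptors, and Sox11 a transcription factor of the developing nervous system.

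All 63 probes had the same sign on the 4 arrays, which is no separate support, since they were picked on these same arrays for a large difference and a small p. Sox11 was at 2.11, 2.09, 2.90 and 2.20 in KC and 6.51, 6.58, 5.51 and 6.26 in KT. Of the 63, 59 had a higher mean in ET than EC and 62 in IT than IC. Among bright probes these were 11669 and 11222 of 22590, but most of the 63 were dim in KC. The share over all probes is not given here, so that the counts are no result about the 63. In both comparisons the higher group carried Cy5, and the part of the dye was not tested.

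Whether the Kupffer cell change differed from that of the other liver cells was tested on the difference itself. With 4 replicates, 11 bright probes differed between Kupffer and endothelial cells (0.0487%), 5 with the larger change in Kupffer cells and 6 with the smaller, and 0 differed between Kupffer and Ito cells, where limma gave 311 and 380 at an unadjusted p under 0.05. Lgals3 was among the 11, with a change lower than that of endothelial cells by -1.43 (limma adjusted p = 0.00613). Its Kupffer change was smaller, at -0.66 in replicates 1 to 3, and was not called over 4 replicates. The rest of that difference was a higher mean in ET than EC. Leaving out replicate 4 of the Ito cells as well was chosen after the data were seen, and the agreement of the Ito arrays is not given here. It raised the bright calls between KT and KC from 515 to 1333, as 1 fit estimates the spread over all groups. Without replicate 4 of the Kupffer and Ito cells, 122 bright probes differed from endothelial and 65 from Ito cells (0.54% and 0.288%). Hdac7 then rose more in Kupffer than in endothelial cells, by 1.83 (limma adjusted p = 0.0151), and Irf4 had the lower change in Kupffer cells, by -1.57 (limma adjusted p = 0.0275). The change of Hmox1 was larger in Kupffer than in Ito cells, by 1.82 (limma adjusted p = 0.0161). That is more than its Kupffer rise of replicates 1 to 3 (1.12), so that Hmox1 did not rise in the Ito cells of that fit. Kupffer arrays lay on another slide than endothelial and Ito arrays, so that slide and cell type cannot be told apart in these differences.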

How the data were processed

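The authors deposited, for each channel of 16 two-colour Agilent arrays, spot intensities of the Feature Extraction software, background-corrected and scaled between dyes, and a table of normalized intensities per probe, which follows the values computed here (r at least 0.99996 in the Kupffer columns) and served as an alternative. The groups come from the sample labels, and the methods call the 4 samples of a group biological replicates. Their number limits the precision. From the processed signal, control and outlier spots were left out, log2 taken, the spots of a probe averaged (59305 spots, 55681 probes), and the 32 channels quantile normalized, as in the study. Quantile normalization forces 1 distribution on all channels and would hide a global shift.

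KT was compared with KC by limma in 1 fit of 8 groups, and p-values were adjusted over all probes by Benjamini-Hochberg. The fit of replicates 1 to 3 left out KC and KT replicate 4 only. Named genes are the 10 largest rises and falls among bright called probes with a symbol in each fit, the 5 largest rises of probes dim in KC, and list members that were called, did not overlap or head their list. A gene that meets this rule is not reported here. The members and lists were chosen with earlier results of these data known. For a list gene with several probes, the one above background in most Kupffer channels was used (ties by mean level), with the one of highest variance as an alternative. Symbols were matched to RefSeq and coordinates are those of mm9 in the files. The KC and KT samples of a number share an array, which was used as the replicate block in an alternative. Their deviations from the group means correlated at -0.211, -0.233, 0.116 and -0.643. The steps were tested on simulated data with independent noise in each channel. These data held no shared arrays and no samples like KC replicate 3 or those of array 4, so that the test does not bear on them.

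Alternatives were normexp background correction (offset 50) with quantile or with loess and Aquantile normalization, 75th percentile scaling, the deposited table, 2 filters on dim probes, the replicate block, a fit of the Kupffer channels alone, the methods' t-test, other thresholds and leaving out replicates. Chosen after seeing the data were leaving out KC replicate 3, and replicate 4 of the Kupffer and Ito cells only. The miRNA, protein and patient data were not analysed here. The software was limma 3.58.1 in R 4.3.3 (files read with data.table, version 1.17.8). Python 3.11.15 was used with pandas 2.3.3, numpy 2.4.6 and, for the figures, matplotlib 3.10.9.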

Additional observations from a re-analysis of the deposited data

Results flagged for a closer look

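In the groups of 4 samples, 81 values of the named genes and of the share of detected spots stood apart by Dixon's test, 1 sample from the other 3, of 242 group values tested. For genes picked without regard to these values, about 1 in 20 groups, or 12.1, would be expected by chance. Many of these genes were picked by their differences in replicates 1 to 3 or after their values were seen, so that 12.1 is not the number expected for them. The sample labelled KT replicate 4 gave 53 of the 81, KC replicate 3 17, KC replicate 4 8 and KT replicate 3 3. These values are not independent of each other, since they come from the same few samples.

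KT replicate 4 lay below the other 3 KT samples (log2 level in parentheses) for Sirpb1a (6.99), Knop1 (15.86), Pla2g7 (9.76), Htra4 (5.39), Gm12059 (9.22), Gmnn (7.37), Dcaf12l2 (16.20), Vsig4 (12.77), Cd5l (15.86), Marco (15.27), Adgre1 (13.44), Csf1r (14.04), Ccr2 (4.69), S100a4 (6.54), Chil3 (4.65), S100a8 (10.72), S100a9 (9.78), Ly6g (7.11), Ngp (4.62), Trem2 (9.75), Arg1 (9.49), Mmp9 (3.00), Tlr1 (9.23), Ctsd (15.67), Hmox1 (14.86), Slc11a1 (15.04), Abcg1 (14.24), C4b (13.56), Saa3 (13.26), Cd3d (2.47), Cd3g (1.98) and Gzma (6.41). It lay above them for Mup5 (12.40), Gm3715 (9.16), Mup3 (11.94), E130304I02Rik (6.96), Kcnq1 (6.93), Irf4 (10.66), Foxp1 (8.12), Fabp1 (10.34), Il6 (15.36), Isg15 (18.13), H2-Aa (10.52), Cd40 (14.86), Slc11a2 (10.81), Slc2a1 (14.19), Hk2 (11.59), Ndrg1 (13.36), Apoa1 (9.02), Lyve1 (12.20), Pecam1 (10.48), Hba-a1 (12.44) and Krt18 (8.72).

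KC replicate 4 stood apart from the other 3 KC samples for Sirpb1a (9.56), Htra4 (7.57), Chil3 (7.91), S100a9 (12.84), Trem2 (11.41), Mmp9 (6.26), Tlr1 (11.05) and Krt8 (6.04). KC replicate 3 did so for Zcchc9 (15.83), Sp110 (16.30), A530001N23Rik (2.93), Vmn1r41 (2.90), Sox11 (2.90), Cd68 (15.43), Spp1 (8.11), Gpnmb (9.03), Lpl (11.64), Il1a (9.68), Il1b (13.94), Ifit1 (14.69), Ifit2 (14.50), C2 (13.80), Stab2 (9.83) and Cd3e (10.79), and 44.6% of its spots were well above background. KT replicate 3 stood apart for Tas2r116 (5.28), Cd14 (14.63) and Epcam (5.56). The cause was not tested.

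Changes that differed between Kupffer and other cells by a test of the difference (limma, adjusted over all probes) were these. With 4 replicates, the change in Kupffer minus that in endothelial cells was 2.67 for Tas2r116 (adjusted p = 0.00177), 2.44 for Sox11 (adjusted p = 0.00177) and -1.43 for Lgals3 (adjusted p = 0.00613). Without replicate 4 of the Kupffer and Ito cells, it was 2.62 for Tas2r116 (adjusted p = 0.0041), 2.38 for Sox11 (adjusted p = 0.00421), -1.69 for Lgals3 (adjusted p = 0.00035), 1.83 for Hdac7 (adjusted p = 0.0151), -2.91 for Airn (adjusted p = 0.0492), -1.57 for Irf4 (adjusted p = 0.0275) and -1.72 for Slc2a1 (adjusted p = 0.0492). Without those samples, the change of Hmox1 was 1.82 larger in Kupffer than in Ito cells (adjusted p = 0.0161). For Hmox1, Lgals3, Slc2a1 and Airn the difference was larger than the Kupffer change itself, so that part of it lay in the other cells. Tas2r116 and Sox11 were not well above background in any KC sample, so that the size of their differences depends on the background. Both were higher in IT than IC too, by 3.56 and 3.13, and the test between Kupffer and Ito cells called neither.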

How the results depend on the processing

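No named gene reversed its direction under the alternatives run, but this was largely fixed in advance. The largest rises and falls of replicates 1 to 3 were picked for the same sign on arrays 1 to 3. No alternative for replicates 1 to 3 added array 4. On array 4, 156 of the 218 bright probes called higher from replicates 1 to 3 had the opposite sign, and 293 of the 297 called lower. Of 637 values of named genes under them, 419 kept their direction and side of the threshold and 218 were no longer called, most of those when a replicate was left out, with the replicate block or with the methods' t-test.

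With 4 replicates, the 242 calls over all probes became 114 and 1 under the filters on dim probes, 117 with the Kupffer channels alone, 49 with the methods' t-test, 128 at an adjusted p under 0.01, and 133 to 999 when a replicate was left out. The 63 probes at the study's thresholds became 0 with normexp under either normalization, 41 and 0 under the filters, 7 with the Kupffer channels alone, 0 with the t-test, and 48 to 67 without a replicate. The 29 bright calls became 47 and 111 with normexp, 50 with percentile scaling, 7 with the replicate block, 1 under the stricter filter, 0 with the Kupffer channels alone, 1 with the t-test, 7 at 0.01, 10 without KC replicate 3 and 4 to 515 without a replicate. List genes, 1 called, became 2 under each other scaling and the deposited table, 0 under the stricter filter, the block, the Kupffer channels alone, the t-test, without KC replicate 3 or with probes of highest variance, and 0 to 7 without a replicate. The methods' t-test gave 740 bright probes higher and 586 lower before adjustment.

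For replicates 1 to 3, the 999 calls became 1550 and 1607 with normexp, 542 with the block, 2936 with the Kupffer channels alone, 251 at 0.01, 559 without KC replicate 3 and 288 to 422 without a replicate. The 515 bright calls became 1101 and 1182 with normexp, 307 with percentile scaling (53.7% of them higher, against 42.3%), 798 under the milder filter, 169 with the block, 2147 with the Kupffer channels alone, 1231 with the t-test, 91 at 0.01, 255 with a 2-fold minimum, 214 without KC replicate 3 and 75 to 130 without a replicate. The 7 list genes became 11 and 18 with normexp, 0 with the block, 55 with the Kupffer channels alone, 35 with the t-test and 0 to 5 without a replicate.

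Leaving replicate 4 out of all groups gave 1937 calls, 1225 bright, 58 against endothelial and 39 against Ito cells, and 18 list genes. Leaving it out of the Kupffer and Ito cells gave 2188, 1333, 122, 65 and 22, with 95 at the study's thresholds. Without KC and KT replicate 4, 48.8% of the calls over all probes were higher, against 84.7% with them. Against endothelial cells, the 11 bright probes became 31 and 65 with normexp, 67.7% and 72.3% of them higher in place of 45.5%, 10 with percentile scaling (70.0% higher), 2 with the block, and 6 to 23 without a replicate, and against Ito cells 0 became 0 to 1. The correlation of array 4 with the others stayed between -0.801 and -0.478. The cause of these changes was not tested. Other scalings moved the median difference of all bright probes by less than 0.1. This was largely fixed in advance, since each scaling brings the channels to like levels.

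Signal over background limits the probes outside the 22590 bright ones, and their differences at the study's thresholds depend on the background correction.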
